A study of Rattus norvegicus with 18 samples.

Results

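The miR-181 family is a group of microRNAs (miRNAs, short RNAs that pair with messages and lower their output). It was followed here in rat heart tissue by small RNA sequencing. Every listed entry named miR-181a, b, c or d was taken, from either arm of its precursor, which gave 10 of 599 listed miRNAs, 4 of them 5p and 6 of them 3p. The 18 libraries fell into 3 groups of 6. WKY rats (Wistar Kyoto, the normotensive strain, given in the labels as normal) were set beside rats of the spontaneously hypertensive strain (SHR, labelled hypertension), and beside SHR treated with QDG, here called QDG. The design text says that the animals received NS or QDG, and neither abbreviation is spelled out there. Age, sex, dose and duration were not given in the sources used here. Strain and blood pressure differ together between WKY and SHR and cannot be told apart, and QDG treated SHR differ from WKY in treatment as well. Nothing in the labels ties each library to a separate rat, so the p-values measure the spread between these libraries, which may be partly technical.

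In mammals the family is made from 3 pairs of neighbouring genes, 6 precursors in all. Each precursor is cut into a 5p arm, usually the working guide, and a 3p arm, usually discarded. A guide finds its targets mainly through its seed, bases 2 to 8. miR-181a is best known for setting the sensitivity of the T cell receptor, and miR-181b for damping NF-kB signalling in endothelium. miR-181c is known from heart muscle cells, where it was found inside mitochondria acting on the message of a mitochondrially encoded subunit of cytochrome c oxidase. miR-181d is known for repressing the DNA repair gene MGMT in tumour cells.

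The 4 guide sequences are shown because the results below divide members that differ by very few bases. They come from RefSeq (GRCr8), which had an entry for 9 of the 10 members. Capitals mark the seed.
miR-181a-5p: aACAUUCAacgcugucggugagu
miR-181c-5p: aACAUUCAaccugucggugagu
miR-181b-5p: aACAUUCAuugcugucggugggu
miR-181d-5p: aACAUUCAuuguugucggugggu
All 4 guides share one seed, which no other of the 693 mature miRNAs in the RefSeq table has. Outside the seed the guides fall into pairs of near twins. miR-181c-5p is miR-181a-5p without the base at position 11, counted from the 5′ end. miR-181d-5p differs from miR-181b-5p by the single substitution C12U. Between the pairs, miR-181a-5p differs from miR-181b-5p by A9U, C10U and A21G. No source used here says how the authors counted reads that fit more than 1 of these entries, so the split within each pair is uncertain. Summed counts that bear on this are given with the library depths below.

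The 3p arms are less alike, and 3 are shown because their levels are compared below, again with the seed in capitals.
miR-181a-1-3p: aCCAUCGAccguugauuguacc
miR-181c-3p: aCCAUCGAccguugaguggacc
miR-181a-2-3p: aCCACCAAccguugacugu
miR-181a-1-3p and miR-181c-3p share their seed and differ by U16G and U19G. The 3p arm of miR-181a-2 has a seed of its own. In the RefSeq table each of these arms belongs to 1 gene, as do miR-181c-5p and miR-181d-5p, whereas miR-181a-5p is listed under 2. miR-181b-5p is listed under Mir181b1 alone, but its sequence also occurs in the precursor Mir181b2.

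In GRCr8 the miR-181a guide is encoded at chr13:52037081-52037103 and again at chr3:43025601-43025623, both on the + strand. The chromosome 13 genes Mir181a-1 and Mir181b1 lie within the span of the non-coding gene LOC108352541, and the next gene beyond them is Ptprc, which encodes the leukocyte surface protein CD45. The chromosome 3 genes Mir181a2 and Mir181b2 lie within the span of Nr6a1, a nuclear receptor gene. Mir181c and Mir181d lie within no other gene's span and are followed by Nanos3. The table does not say whether these positions are exonic or intronic, and for the build behind the deposited values the sources used here give nothing. Entries that differ between groups below are miR-181d-5p and miR-181c-3p from this last pair and miR-181a-2-3p from chromosome 3, but not miR-181c-5p. The precursors Mir181c and Mir181d are printed with their mature arms in capitals.
Mir181c: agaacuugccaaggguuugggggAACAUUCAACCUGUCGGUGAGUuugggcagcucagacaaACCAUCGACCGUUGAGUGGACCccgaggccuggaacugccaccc
Mir181d: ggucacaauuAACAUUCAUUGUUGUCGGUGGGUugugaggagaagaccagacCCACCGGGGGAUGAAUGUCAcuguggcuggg
They are read from chr19:40888291-40888396 and chr19:40888474-40888556, both on the + strand.

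Values are given in reads per 1000000 (RPM) as the authors scaled them. Read counts summed over all listed miRNAs ran from 6420666 to 10169581 a library. The scaling divided by 4449279 to 7403775 reads, so 1 read was worth 0.135 to 0.225 RPM. In every library the summed counts exceeded this divisor. miR-466b-2-3p and miR-466b-4-3p had the same mean, 1.74 RPM in QDG and 1.99 RPM in SHR. Whether reads were counted under more than 1 entry was not tested. The heart muscle miRNAs miR-1-3p, miR-133a-3p, miR-208a-3p, miR-208b-3p and miR-499-5p were all present in every library, with miR-133a-3p at 31041 RPM or more. Of the neuronal miRNAs, miR-124-3p stayed at or below 1.83 RPM while miR-9a-5p had 318 to 583 RPM. The 4 epithelial miRNAs summed to 52.3 to 81.9 RPM, mostly miR-200c-3p, and the liver miR-122-5p stayed at or below 18.02 RPM. Against WKY, miR-200c-3p rose in SHR (log2 0.36 ± 0.12, SE, limma adjusted p = 0.0238) and miR-208b-3p in SHR and QDG (0.89 ± 0.16 and 0.72 ± 0.16, adjusted p = 0.000132 and 0.00136). WKY replicate 1 stood apart in that miR-1b, a muscle miRNA, took 33.1% of its summed counts against 24.1 to 27.4% in the other 17 libraries. Over the 410 tested miRNAs WKY replicate 1 differed from the mean of its group's other libraries by a root mean square of 0.43 on the log2 scale. SHR replicate 5 differed by 0.49, and the other 16 libraries by 0.23 to 0.37. Results are also given without these where a call changes.

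The family was carried by its guides. The 4 guides together had 6064 ± 737 RPM in WKY hearts (SD, n = 6 in this and each other group), 5551 ± 509 in SHR and 5548 ± 251 in QDG, and the 6 3p entries together 163 ± 10.8, 142 ± 10.3 and 144 ± 14.2 RPM. As a share of the counts summed over all listed miRNAs, which exceed the divisor of the RPM, all 10 entries held 0.432 ± 0.0476% in WKY. This share was 0.409 ± 0.0423% for SHR and 0.401 ± 0.0122% for QDG. By mean level over the 18 libraries the order was miR-181a-5p (3861 RPM, rank 36 of 599), miR-181d-5p (1074 RPM, rank 64), miR-181b-5p (659.5 RPM, rank 76) and miR-181c-5p (126 RPM, rank 137). The guides did not overlap with one another in any group. Next came miR-181a-1-3p at 60.5 RPM and miR-181c-3p at 58.5 RPM, whose ranges overlapped in every group, and then miR-181a-2-3p at 28.2 RPM. RPM counts reads and does not correct for how readily each sequence enters a library, so the order between entries is one of reads.

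The remaining 3 arms were scarce. miR-181b-1-3p averaged 1.46 RPM, on 3 to 18 reads in each library. miR-181b-2-3p averaged 0.798 RPM on 0 to 8 reads, and miR-181d-3p 0.476 RPM on 1 to 5 reads. For the abundant miR-181d-5p the same libraries held 4318 to 8166 reads. A miRNA was tested if it reached 1 RPM in 6 or more libraries, which left 410 of 599 and 8 of the 10 members. miR-181b-2-3p reached 1 RPM in 5 libraries and miR-181d-3p in 1, and neither was tested.

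**Figure D1:**
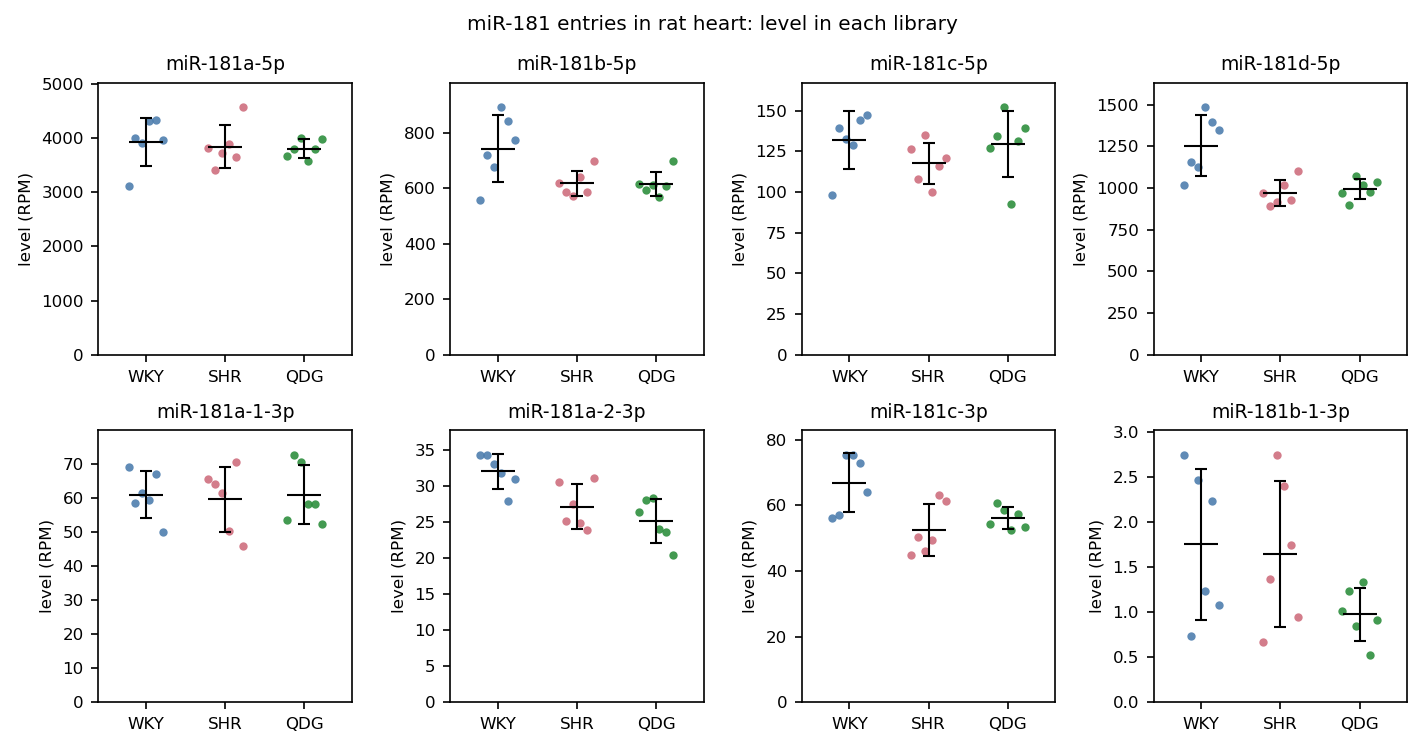
Level in RPM (vertical axes, linear from 0) of the 8 tested miR-181 entries in each of the 18 libraries, by group (horizontal axes). Each point is 1 library, placed by replicate number, and black marks give mean and SD of 6; the miR-181d-5p panel shows 5 of 6 WKY libraries above every SHR and QDG library.

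miR-181d-5p, the second most abundant guide, was lower in both SHR groups. It ranged in WKY from 1016 RPM through a median of 1251 to 1484 RPM. In SHR the range was 893 to 1103 RPM with a median of 951, and in QDG 901 to 1073 RPM with a median of 998. WKY replicate 1 was the lowest WKY library, and the other 5 WKY libraries lay above every SHR and every QDG library. The mean fell from 1254 ± 182 RPM in WKY to 972 ± 77.7 in SHR (SD, n = 6 each), a log2 change of -0.36 ± 0.09 (SE), or 1.28-fold (limma adjusted p = 0.00632), with 6 of 6 SHR libraries below the WKY mean. In QDG the mean was 996 ± 60.8 RPM, a log2 change from WKY of -0.32 ± 0.09 (limma adjusted p = 0.0143), with 6 of 6 libraries below the WKY mean. The SHR against WKY call held in 31 of 31 alternative settings and left-out libraries, and that of QDG against WKY in 30 of 31, being lost without WKY replicate 4 (limma adjusted p = 0.052).

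miR-181b-5p, the near twin of miR-181d-5p, had values on the same side that did not pass the test as fitted, with a call that depended on the settings. Its lowest, median and highest values were 558, 747 and 893 RPM in WKY, 572, 605 and 698 RPM in SHR, and 569, 610.1 and 699.5 RPM in QDG. WKY replicate 1 was again the lowest WKY library and lay below every SHR and QDG library, while WKY replicates 2, 4, 5 and 6 lay above them all. The log2 differences were -0.25 ± 0.10 in SHR and -0.26 ± 0.10 in QDG (SE, limma adjusted p = 0.067 and 0.0752). In QDG the difference passed with RLE and upper quartile scaling (limma adjusted p = 0.0408 and 0.041) and on the recovered reads with edgeR, DESeq2 and limma-voom (adjusted p = 0.0324, 0.0172 and 0.0319). Without WKY replicate 1 the differences were -0.33 in SHR and -0.34 in QDG and passed (limma adjusted p = 0.00563 and 0.00561), as did the SHR difference without SHR replicate 6 (0.047). Without WKY replicate 1 and SHR replicate 5 together they were -0.32 and -0.34 and also passed (limma adjusted p = 0.0143 and 0.00601). Within the family the profiles of miR-181b-5p and miR-181d-5p were the nearest of the 28 pairs of tested entries. After each entry's own mean was subtracted, their log2 values differed over the 18 libraries by a root mean square of 0.08. The other near twins, miR-181a-5p and miR-181c-5p, differed by 0.17, and the non-member miR-125a-5p differed from miR-181b-5p by 0.09. As the sequences of miR-181b-5p and miR-181d-5p differ by 1 base, these entries may not be separate measurements, which was not tested.

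The most abundant guide, miR-181a-5p, showed no such shift. It had 3108, 3978 and 4329 RPM in WKY as lowest, median and highest, 3418, 3766 and 4568 RPM in SHR, and 3569, 3804 and 4006 RPM in QDG. The 3 groups overlapped, with the lowest value of all in WKY replicate 1 and the highest in SHR replicate 6. Log2 differences from WKY were -0.03 ± 0.09 in SHR and -0.04 ± 0.09 in QDG (SE, limma adjusted p = 0.849 and 0.79). With TMM scaling they were 0.07 and 0.04, so their sign is not settled.

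miR-181c-5p, the guide reported in heart mitochondria, also overlapped between groups. It had 98.1, 136 and 147 RPM in WKY, 99.7, 119 and 135 RPM in SHR, and 92.5, 133 and 152 RPM in QDG. One library in WKY (replicate 1) and another in QDG (replicate 4) lay well below the rest of their groups. The log2 differences were -0.16 ± 0.12 in SHR and -0.03 ± 0.12 in QDG against WKY (SE, limma adjusted p = 0.385 and 0.881), the latter changing sign with TMM scaling (0.05).

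Of the 3p arms, miR-181c-3p fell in SHR. Its lowest, median and highest values were 56.3, 68.5 and 75.4 RPM in WKY, 44.7, 49.8 and 63.2 RPM in SHR, and 52.4, 55.8 and 60.7 RPM in QDG. The 6 SHR libraries lay below the WKY mean, and SHR replicates 5 and 6 overlapped the lower WKY libraries. The mean was 66.8 ± 8.94 RPM in WKY and 52.5 ± 7.85 in SHR (SD, n = 6 each), a log2 change of -0.34 ± 0.11 (SE, limma adjusted p = 0.0218). The call was lost with TMM scaling (-0.24, adjusted p = 0.0682) and when any of WKY replicates 3, 4 and 5 and SHR replicates 1 and 3 was left out (adjusted p = 0.0538, 0.0553, 0.0515, 0.0642 and 0.052). In QDG the log2 difference from WKY was -0.24 ± 0.11 (limma adjusted p = 0.137), which passed without WKY replicate 1 and SHR replicate 5 together (0.0437).

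miR-181a-2-3p, the 3p arm traced to the chromosome 3 gene, fell in QDG against WKY. It had 28.0, 32.5 and 34.4 RPM in WKY, 23.9, 26.3 and 31.2 RPM in SHR, and 20.4, 25.2 and 28.4 RPM in QDG as lowest, median and highest. Only WKY replicate 5 overlapped the QDG range. The mean went from 32.1 ± 2.43 RPM in WKY to 25.2 ± 3.05 in QDG (SD, n = 6 each), a log2 change of -0.34 ± 0.11 (SE, limma adjusted p = 0.0306). The call was lost with TMM, RLE and upper quartile scaling (adjusted p = 0.116, 0.0676 and 0.0897), with limma-voom (0.0502), and without WKY replicate 2 or 3 or QDG replicate 5 or 6 (0.063, 0.0556, 0.064 and 0.0876). In SHR the log2 difference from WKY was -0.24 ± 0.11 (limma adjusted p = 0.132).

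miR-181a-1-3p, the 3p arm traced to the chromosome 13 gene, was level. Its values were 49.9, 60.5 and 69.1 RPM in WKY, 45.8, 62.7 and 70.6 RPM in SHR, and 52.4, 58.2 and 72.6 RPM in QDG. The groups overlapped over nearly their whole range, and the log2 differences from WKY were -0.04 ± 0.12 and -0.00 ± 0.12 in SHR and QDG (SE, limma adjusted p = 0.857 and 0.975), with positive signs under TMM scaling (0.06 and 0.08). miR-181b-1-3p, from the same locus, had 0.739 to 2.75 RPM in WKY, 0.674 to 2.75 RPM in SHR and 0.522 to 1.34 RPM in QDG. At 3 to 18 reads a library, its log2 differences from WKY of -0.06 ± 0.22 and -0.43 ± 0.22 could not be told from the spread (limma adjusted p = 0.878 and 0.174).

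**Figure D2:**
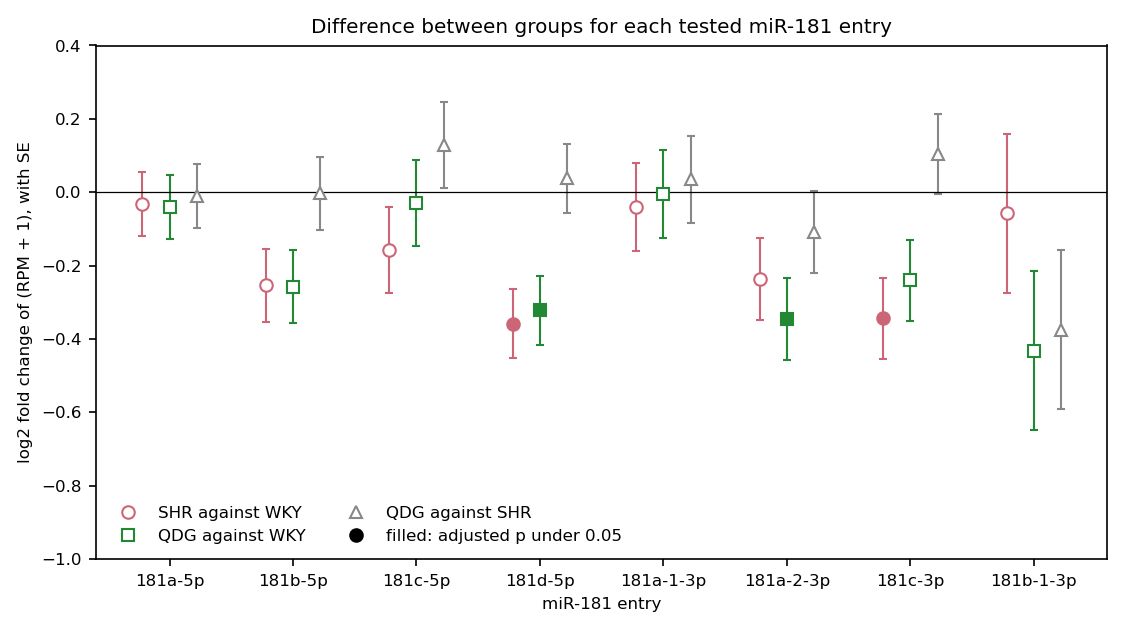
Log2 fold change of RPM plus 1 with its SE (vertical axis) for each tested miR-181 entry (horizontal axis) in the 3 comparisons. Filled marks have a limma adjusted p under 0.05: miR-181d-5p in both comparisons with WKY, miR-181c-3p in SHR against WKY and miR-181a-2-3p in QDG against WKY.

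Counted together, 2 of the 8 tested members fell in SHR against WKY and 0 rose. Over all 410 miRNAs of that comparison 15.1% fell and 23.2% changed in either direction, so this count of members is close to the background. In QDG against WKY 2 of 8 fell and 0 rose, against 10.5% of the 410 that fell and 17.8% that changed. The median log2 difference of the members was -0.20 in SHR and -0.25 in QDG, beside -0.07 and -0.06 over all 410. In 0 of 8 members were the groups free of overlap in either comparison, against 10.2% of all tested miRNAs in the first (6.83% lower) and 8.05% in the second (4.15% lower). Both comparisons use the same 6 WKY libraries and are not separate evidence. Scaling moved the balance of calls over all miRNAs: in SHR against WKY 34.7% of calls were higher as deposited and 54.7% with TMM, and in QDG against WKY 41.1% and 61.0%.

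QDG against SHR asks whether the treatment altered the family within one strain. None of the 8 members passed in limma, and the share called over all 410 miRNAs was 0%. edgeR, DESeq2 and limma-voom on the recovered reads also called 0. At an unadjusted p under 0.05, 15 of the 410 (3.66%) and 0 of the 8 members would count. The mean of miR-181d-5p was 972 RPM in SHR and 996 RPM in QDG, a log2 difference of 0.04 ± 0.09 (SE, limma adjusted p = 0.983). miR-181a-5p had -0.01 ± 0.09 and miR-181b-5p -0.00 ± 0.10, both with signs that turned when single libraries were left out. The largest differences were -0.38 ± 0.22 for the scarce miR-181b-1-3p, 0.13 ± 0.12 for miR-181c-5p, -0.11 ± 0.11 for miR-181a-2-3p and 0.10 ± 0.11 for miR-181c-3p, all with a limma adjusted p of 0.983.

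The balance between the guides can be read within each library, where the scaling cancels. Of the guide reads of WKY hearts, 64.9 ± 1.49% were miR-181a-5p, 20.7 ± 1.16% miR-181d-5p, 12.2 ± 0.577% miR-181b-5p and 2.17 ± 0.18% miR-181c-5p (SD, n = 6). In SHR miR-181a-5p made up 69.2 ± 0.727% and miR-181d-5p 17.5 ± 0.389%, and in QDG 68.6 ± 0.795% and 17.97 ± 0.944%. The share of miR-181a-5p was 63.2 to 66.9% in WKY, below every SHR library (68.3 to 70.4%) and every QDG library (68.0 to 70.0%).

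miR-181b-5p fell relative to miR-181a-5p in both SHR groups. The ratio was 0.173 to 0.207 in WKY with a median of 0.187, 0.153 to 0.172 in SHR with a median of 0.162, and 0.153 to 0.176 in QDG with a median of 0.160. The WKY and SHR libraries did not overlap, and WKY and QDG overlapped at 1 library each. On the log2 scale of RPM plus 1 the difference was -0.22 in SHR (two-sided exact permutation p = 0.00216, the smallest that 6 against 6 allows, adjusted p = 0.0455) and -0.22 in QDG (exact permutation p = 0.00433, adjusted p = 0.0455). 6 of 6 libraries of either group lay below the WKY mean. Adjustment was over 21 tests, 7 ratios in 3 comparisons. The adjusted p-values lie close to the threshold, and leaving out 1 library at a time moved them between 0.0455 and 0.0909. In SHR the call was lost without WKY replicate 1, 2, 4, 5 or 6, although the exact p was 0.00433, the smallest that 5 against 6 allows, in 12 of 12 such tests. In QDG it held only without WKY replicate 3 or QDG replicate 6. The replicate block gave a sign-flip adjusted p of 0.131 for both. With 6 pairs the smallest p is 0.03125, so after adjustment over 21 tests no ratio could pass alone. Both calls were also lost without WKY replicate 1 and SHR replicate 5 together (exact permutation adjusted p = 0.0606), where the differences were -0.24 and -0.23. QDG and SHR did not detectably differ in this ratio (0.01, exact permutation p = 0.861, adjusted p = 0.965).

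The ratio of miR-181d-5p to miR-181a-5p was not among the planned tests and is given as values only. It was 0.288 to 0.345 in WKY, 0.241 to 0.261 in SHR and 0.237 to 0.286 in QDG, with WKY above both other groups and no overlap. miR-181d-5p to miR-181b-5p, the near twins, had 1.60 to 1.82 in WKY, 1.52 to 1.598 in SHR and 1.48 to 1.79 in QDG. The ratio of miR-181c-5p to miR-181a-5p gave no detectable difference (log2 -0.13 in SHR and 0.01 in QDG against WKY, exact permutation adjusted p = 0.421 and 0.965).

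**Figure D3:**
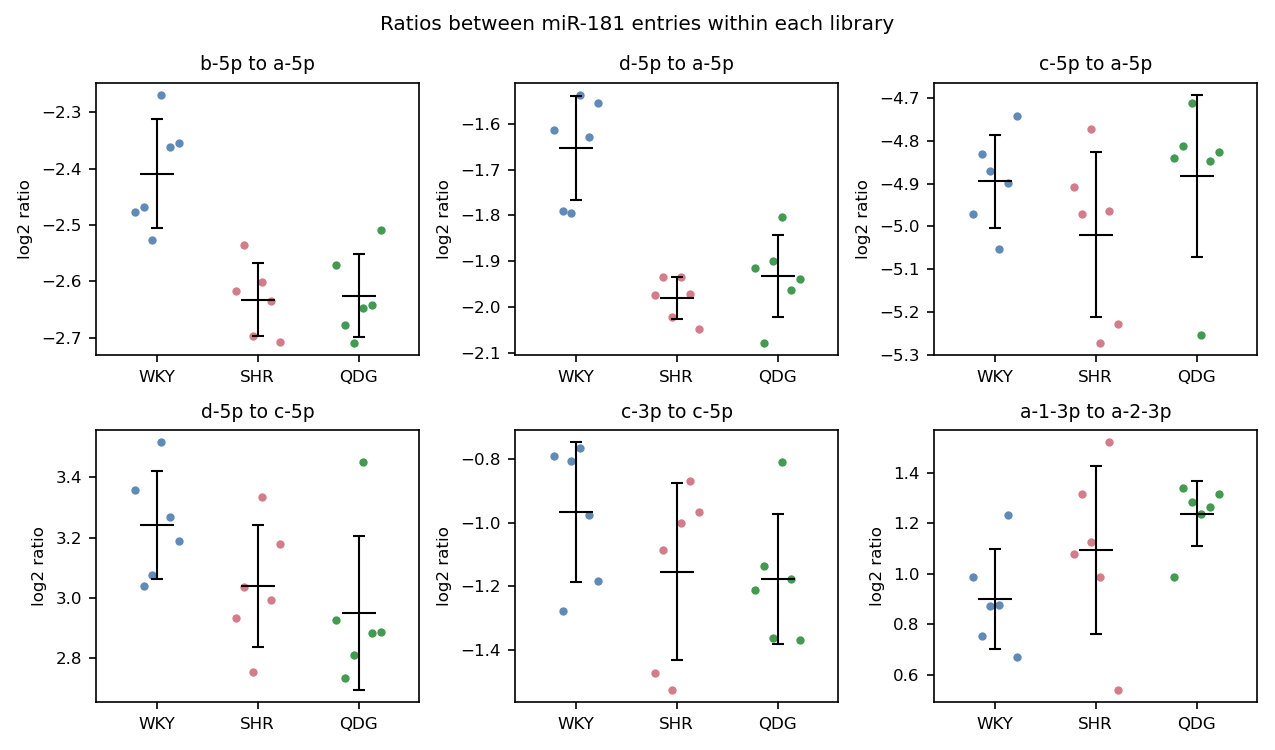
Log2 ratios of RPM plus 1 between miR-181 entries within each library (vertical axes, which do not start at 0), by group (horizontal axes); points are libraries and black marks mean and SD of 6. For miR-181b-5p to miR-181a-5p and miR-181d-5p to miR-181a-5p all 6 SHR libraries lie below all 6 WKY libraries.

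Ratios between neighbouring genes and between arms of 1 precursor were mostly within the spread. Mir181c and Mir181d are neighbours, and miR-181d-5p to miR-181c-5p had ratios of 8.28 to 11.5 in WKY, 6.78 to 10.2 in SHR and 6.69 to 11.04 in QDG. The log2 differences from WKY, -0.20 and -0.29, did not pass (exact permutation p = 0.0909 and 0.0476, adjusted p = 0.318 and 0.2). Without QDG replicate 4 the QDG difference was -0.39 and passed (adjusted p = 0.0455). Between the arms of miR-181c, the 3p to 5p ratio was 0.513 ± 0.0761 (SD, n = 6) for WKY, 0.452 ± 0.0839 for SHR and 0.442 ± 0.0674 for QDG, with no detectable difference (exact permutation adjusted p = 0.318 to 0.965). The 3p arms of miR-181a summed to 0.0241 ± 0.00472 of its guide in WKY, 0.0229 ± 0.00387 in SHR and 0.0226 ± 0.00283 in QDG, and this ratio did not differ detectably either (exact permutation adjusted p = 0.842 to 0.965). miR-181b-1-3p to miR-181a-1-3p had adjusted p of 0.2 to 0.965.

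The 3p arms of the miR-181a genes, read from different chromosomes, differed in proportion between QDG and WKY but not detectably between QDG and SHR. The ratio of miR-181a-1-3p to miR-181a-2-3p was 1.61 to 2.40 in WKY with a median of 1.86, 1.47 to 2.95 in SHR with a median of 2.19, and 2.02 to 2.59 in QDG with a median of 2.47. WKY replicate 5 lay inside the QDG range and WKY replicate 1 at its lower edge, and SHR covered both other groups. The log2 difference of QDG from WKY was 0.34 (exact permutation p = 0.00649, adjusted p = 0.0455), with 6 of 6 QDG libraries above the WKY mean. With 1 library left out the adjusted p was 0.0455 to 0.0909, and the call held only without QDG replicate 1. It was also lost with a pseudocount of 5 (adjusted p = 0.0909) and without WKY replicate 1 and SHR replicate 5 together (0.0606). The replicate block gave a sign-flip adjusted p of 0.219, but as stated above no ratio could pass alone with it. SHR against WKY gave 0.20 and QDG against SHR 0.14 (adjusted p = 0.443 and 0.626).

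Other miRNAs with like patterns were sought among 242 non-members of at least 10 RPM, by the root mean square difference of log2 values over the 18 libraries after subtracting each one's mean. The nearest to miR-181a-5p were miR-125a-5p (0.09), miR-98-5p (0.097), miR-23a-3p (0.10), miR-191a-5p (0.10) and miR-652-3p (0.11), against a median of 0.21. The nearest to miR-181d-5p were let-7e-5p (0.11), miR-92a-3p (0.12) and miR-30c-1-3p (0.12), against a median of 0.27. let-7e-5p had a mean of 779 RPM in WKY and 575 RPM in SHR. It was picked for its likeness over these same libraries, so its lower level in SHR is not separate evidence. The nearest to miR-181c-3p were let-7e-5p (0.13), the lymphocyte miRNA miR-150-5p (0.13) and miR-106b-3p (0.135). For miR-181a-2-3p they were let-7f-5p (0.155), let-7a-5p (0.155) and miR-1839-5p (0.16). A miRNA that did not vary at all would lie at 0.12 from miR-181a-5p. It would lie at 0.21 from miR-181d-5p and from miR-181c-3p, and at 0.198 from miR-181a-2-3p. The distances from miR-181a-5p are thus only a little below that of a flat profile.

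Of 3 others reported to act on mitochondrially encoded messages, 3 rose in SHR and 3 in QDG against WKY. The muscle miRNA miR-1-3p had a log2 change in SHR of 0.74 ± 0.08 (SE, limma adjusted p = 3.34e-08). For miR-21-5p it was 0.42 ± 0.11 and for miR-378a-3p 0.45 ± 0.09 (adjusted p = 0.00513 and 0.000326). The muscle miRNA miR-1b, not on this list and more abundant than miR-1-3p, had its highest mean in WKY. Its means were 395414 RPM in WKY, 363996 in SHR and 357017 in QDG. In QDG against WKY its log2 difference of -0.14 ± 0.07 did not pass (limma adjusted p = 0.144). How reads were divided between these muscle entries was not tested. Of 3 others linked to NF-kB signalling, 2 rose in each comparison, namely miR-146b-5p (0.51 ± 0.14, adjusted p = 0.0122 in SHR) and miR-155-5p (0.48 ± 0.14, adjusted p = 0.0128). miR-146a-5p had -0.29 ± 0.11 in SHR (adjusted p = 0.0698). The background of rising miRNAs was 8.05% in SHR against WKY and 7.32% in QDG against WKY. These lists were drawn up with earlier results of these data known.

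Since miR-181a is known from lymphocytes and miR-181b from endothelium, markers of those cells were read beside the family. In bulk tissue, fewer cells of a type and less RNA per cell cannot be told apart. Of 7 leukocyte miRNAs 0 fell in either comparison with WKY, miR-155-5p rose in both and miR-142-3p in QDG alone passed (log2 0.38 ± 0.13, limma adjusted p = 0.0422, against 0.20 ± 0.13 and 0.312 in SHR). Their summed level was 6516 to 9403 RPM in WKY, 6084 to 7234 in SHR and 5168 to 7824 in QDG, mostly miR-146a-5p. The lymphocyte miRNA miR-150-5p had 804 ± 121 RPM (SD, n = 6) for WKY, 677 ± 85.1 for SHR and 662 ± 45.7 for QDG, with log2 differences of -0.24 ± 0.11 and -0.27 ± 0.11 (adjusted p = 0.102 and 0.0815). No leukocyte marker was at 0 in any library. The endothelial miR-126a-3p and miR-126a-5p did not pass in either comparison and summed to 88331 to 127217 RPM in WKY, 114087 to 126819 in SHR and 115468 to 129834 in QDG. The part of these cells in the fall of miR-181d-5p was not tested.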

How the data were processed

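Small RNA libraries were made from 1 μg of total RNA of rat heart, per the labels' protocols. The deposited values are a normalized read count per mature miRNA, per the file headers. FastQC, TopHat2 and limma are named in the submitters' processing notes. No source used here gives the build, the miRNA annotation or the handling of reads that fit several entries. The deposited signal is a whole number of reads scaled to 1000000 reads of a divisor particular to each library: all 10782 of the 10782 (100%) were whole to a tolerance of 0.01 read. Counts summed over all listed entries exceeded that divisor in every library.

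The members and lists were chosen with earlier results of these data known. A filter of 1 RPM or more in 6 libraries or more left 410 of 599 miRNAs. log2(RPM + 1) of all 18 libraries was fitted with limma 3.58.1 (trend, robust; R 4.3.3), with Benjamini-Hochberg adjustment over the 410 and a threshold of 0.05. The pseudocount of 1 understates changes of scarce entries. The fit was tested on simulated data. Ratios between members were compared by two-sided exact permutation tests (SciPy 1.17.1). Alternatives were pseudocounts of 0.5 and 5, no filter and 10 RPM, TMM, RLE and upper quartile scaling, edgeR 4.0.16, DESeq2 1.42.0 and limma-voom on the recovered reads, only the 2 groups compared, a replicate block, and libraries left out. No 2 libraries were identical, and chi-square per degree of freedom between replicates was at least 45.5.

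Every miR-181 entry was named. Others were named where they passed in a fixed list or define a tissue, or as the 5 miRNAs nearest to miR-181a-5p and the 3 nearest to each other called member. miR-146a-5p, miR-150-5p values and the levels of near-absent markers were added after values were seen.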

Additional observations from a re-analysis of the deposited data

Results flagged for a closer look

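In 9 of 66 groups of 6 values checked, 1 library lay far from the other 5 by Dixon's criterion, which chance meets in about 1 of 20 groups. WKY replicate 1 had the lowest miR-181a-5p of its group, 3108 RPM with 3906 the next. It also had the lowest miR-181c-5p, 98.08 RPM with 128.8 the next, and the highest log2 ratio of the miR-181a 3p arms to their guide, -4.896 with -5.352 the next. QDG replicate 4 had the lowest log2 ratio of miR-181c-5p to miR-181a-5p in its group, -5.255 with -4.847 the next, and the highest of miR-181d-5p to miR-181c-5p, 3.45 with 2.925 the next. QDG replicate 6 had the highest miR-181b-5p of its group, 699.5 RPM with 616.1 the next. QDG replicate 1 had the lowest log2 ratio of miR-181a-1-3p to miR-181a-2-3p, 0.987 with 1.239 the next. The scarce arms gave the remaining cases: miR-181b-2-3p at 1.301 RPM in WKY replicate 6, with 0.8284 the next, and miR-181d-3p at 1.036 RPM in WKY replicate 4, with 0.4473 the next.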

How the results depend on the processing

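Of 1077 alternative values for 45 results, 926 kept their direction and side of the threshold, 48 lost a call, 12 gained one and 91 changed sign, none of the last among called results. The counts of called miRNAs ran over left-out libraries from 81 to 106 in SHR against WKY, from 64 to 80 in QDG against WKY, and stayed at 0 in QDG against SHR. All values below are log2 differences, and the cause of the changes was not tested. In SHR against WKY, miR-181a-1-3p changed sign with TMM (0.061), RLE (0.035) and upper quartile scaling (0.0145), edgeR (0.0041) and DESeq2 (0.033). miR-181a-5p did so with TMM (0.071), RLE (0.045), upper quartile (0.0242), edgeR (0.024), DESeq2 (0.0498) and limma-voom (0.0201), and miR-181b-1-3p with TMM (0.0012). In QDG against WKY, miR-181a-1-3p did so with TMM (0.078), RLE (0.038), upper quartile (0.0355), edgeR (0.016), DESeq2 (0.036) and limma-voom (0.014). There miR-181a-5p changed sign with TMM (0.0435), RLE (0.0028) and DESeq2 (0.0049), and miR-181c-5p with TMM (0.055), RLE (0.015), upper quartile (0.012), edgeR (0.0078) and DESeq2 (0.024).

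Without WKY replicate 1 and SHR replicate 5 together, signs changed for miR-181b-1-3p in SHR against WKY (0.021) and miR-181a-1-3p in QDG against WKY (0.033). So did the ratios of the miR-181a 3p arms to their guide in QDG against SHR (0.033) and QDG against WKY (0.021), miR-181c-3p to miR-181c-5p in QDG against SHR (0.034), and miR-181c-5p to miR-181a-5p in QDG against WKY (-0.0035). The ratio of miR-181b-1-3p to miR-181a-1-3p in SHR against WKY gave 0.075 there and 0.014 with a pseudocount of 5. The 3 called ratios were not called without these libraries: miR-181b-5p to miR-181a-5p had -0.24 in SHR and -0.23 in QDG against WKY, and miR-181a-1-3p to miR-181a-2-3p 0.36. The last was also not called with a pseudocount of 5 (0.30).

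With single libraries left out, the ranges were, in SHR against WKY, -0.095 to 0.032 for miR-181a-1-3p, -0.097 to 0.0016 for miR-181a-5p and -0.18 to 0.064 for miR-181b-1-3p. In QDG against SHR they were -0.036 to 0.086 for miR-181a-1-3p, -0.043 to 0.041 for miR-181a-5p and -0.040 to 0.033 for miR-181b-5p. In QDG against WKY they were -0.060 to 0.036 for miR-181a-1-3p and -0.11 to 0.064 for miR-181c-5p. Among ratios, miR-181b-5p to miR-181a-5p ran from -0.246 to -0.195 in SHR against WKY, -0.24 to -0.188 in QDG against WKY and -0.017 to 0.026 in QDG against SHR. miR-181a-1-3p to miR-181a-2-3p ran from 0.294 to 0.407 and miR-181d-5p to miR-181c-5p from -0.393 to -0.237, both in QDG against WKY. The miR-181a 3p arms to their guide ran from -0.11 to 0.026 in SHR against WKY, -0.0895 to 0.054 in QDG against SHR and -0.12 to 0.021 in QDG against WKY. miR-181c-3p to miR-181c-5p ran from -0.098 to 0.034 in QDG against SHR, miR-181c-5p to miR-181a-5p from -0.022 to 0.087 in QDG against WKY, and miR-181b-1-3p to miR-181a-1-3p from -0.15 to 0.13 in SHR against WKY.

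The replicate numbers did not pair the libraries: deviations of same-numbered libraries correlated at -0.174 to 0.232 over 18 pairs, and in 4 of these 18 pairs the library correlated best with its own number. With the replicate block 93, 0 and 77 miRNAs were called in SHR against WKY, QDG against SHR and QDG against WKY, and no member's call changed. With that block the ratios miR-181b-5p to miR-181a-5p in SHR (-0.22) and in QDG against WKY (-0.22) and miR-181a-1-3p to miR-181a-2-3p (0.34) were no longer called (adjusted p = 0.131, 0.131 and 0.219), where the smallest p that 6 pairs allow is 0.03125. Depth limits the 3p arms of miR-181b and miR-181d, at 0 to 18 reads a library.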
